A study of Mus musculus with 8 samples.

Results

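Il1rl1 encodes ST2, the receptor for interleukin-33 (IL-33), and was examined in Lats2-deficient mouse embryonic fibroblasts (MEFs) together with related receptors and inflammatory genes. The list held 10 genes, namely the receptors Il1rl1, Il1rl2, Il1r1 and Il1rap, the receptor antagonist Il1rn, the cytokines Il6, Il11, Lif and Csf1, and the enzyme Ptgs2. Every gene probe of the array carrying one of these names was taken, which gave 18 of 41174 gene probes for 9 of the 10 genes (27597 genes were named on the array), and no probe carried the name Lif. Of these, 12 probes for 8 genes passed the filter on dim probes, under which a probe had to exceed its background clearly in 2 or more of the 3 Lats2-/- or of the 3 Lats2+/+ extracts, and which kept 22642 probes for 14727 genes. Il1rl1 was selected on its own measured ratio in these arrays, so its lower signal describes that choice and was given no test. The other genes were chosen by family.

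The arrays compared RNA from Lats2-/- MEFs with RNA from Lats2+/+ MEFs of the same litter, and the question was which transcripts differ when Lats2, a kinase of the Hippo pathway, is lost. There were 3 litters, numbered 112, 116 and 121, each giving 1 extract of either genotype (6 in all), and every extract came from a single named clone (112-C, 116-D and 121-E for Lats2-/-; 112-K, 116-H and 121-C for Lats2+/+). Both genotypes were labelled C57BL/6J, were grown in DMEM with inactivated serum and antibiotics, and were left untreated; the embryonic age is not given in the sources used here. Litters 112 and 116 were each hybridised to 2 arrays with the dyes swapped on slide 1, and litter 121 to 4 arrays with the same swaps on slide 2. All ratios below are log2 of Lats2-/- over Lats2+/+, averaged within a litter over its arrays, and errors are SD over the 3 litters. Signals are log2 intensities of an extract after normalisation and are compared between extracts for 1 probe, never between probes.

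Receptors of the IL-1 family bind their ligand and then recruit a shared partner, IL-1 receptor accessory protein (Il1rap), and the pair signals through MyD88, IRAK kinases and TRAF6 to NF-kB and MAP kinases. ST2 is made in a membrane form, which signals, and in a soluble form, which lacks the membrane anchor and acts as a decoy for IL-33; fibroblasts are known for making the soluble form when they grow. IL-6 family cytokines (Il6, Il11, Lif) signal through gp130 (Il6st), JAK kinases and STAT3, and several of them, like Ptgs2 (cyclooxygenase-2), are induced by IL-1 in fibroblasts.

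The start-site windows of Il1rl1 and of Il33, the gene of its ligand, are shown because these are the receptor and the ligand whose signals lay on opposite sides in every litter. The windows run from 250 bases before to 50 bases after each annotated start, are from RefSeq (build GRCm38.p6) and are written 5′ to 3′ with motif matches in capitals; the coordinates given for probes further on are those of the array files (mm8) and are on another build.
Il1rl1 upstream start, chr1:40429320-40429619, plus strand: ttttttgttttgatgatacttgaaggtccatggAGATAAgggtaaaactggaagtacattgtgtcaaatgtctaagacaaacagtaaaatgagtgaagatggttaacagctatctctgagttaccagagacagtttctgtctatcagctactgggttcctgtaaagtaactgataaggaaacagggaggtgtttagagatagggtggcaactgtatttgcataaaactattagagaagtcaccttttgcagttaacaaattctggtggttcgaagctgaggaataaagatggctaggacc
Il1rl1 downstream start, chr1:40439379-40439678, plus strand: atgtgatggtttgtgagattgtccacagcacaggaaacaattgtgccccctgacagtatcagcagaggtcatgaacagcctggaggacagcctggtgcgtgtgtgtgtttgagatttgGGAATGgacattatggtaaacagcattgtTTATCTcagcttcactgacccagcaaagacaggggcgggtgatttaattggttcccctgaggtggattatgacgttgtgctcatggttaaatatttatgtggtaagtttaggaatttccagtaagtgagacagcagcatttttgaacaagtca
Il33 upstream start, chr19:29924863-29925162, plus strand: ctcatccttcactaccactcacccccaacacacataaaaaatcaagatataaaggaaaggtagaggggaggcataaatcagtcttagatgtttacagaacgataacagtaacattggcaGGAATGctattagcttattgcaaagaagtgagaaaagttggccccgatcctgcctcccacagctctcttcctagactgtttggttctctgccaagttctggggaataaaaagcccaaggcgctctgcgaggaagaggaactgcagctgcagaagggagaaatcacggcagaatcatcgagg
Il33 downstream start, chr19:29945540-29945839, plus strand: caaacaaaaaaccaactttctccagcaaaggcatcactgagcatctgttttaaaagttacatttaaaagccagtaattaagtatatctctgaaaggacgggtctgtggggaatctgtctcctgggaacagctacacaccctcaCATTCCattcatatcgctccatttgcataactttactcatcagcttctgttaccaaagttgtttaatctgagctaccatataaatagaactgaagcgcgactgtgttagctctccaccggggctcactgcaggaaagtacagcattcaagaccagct
The motifs searched on both strands were TGANTCA (AP-1), GGAATG (TEAD, the DNA-binding partner of YAP and TAZ, which Lats kinases inhibit), AGATAA, bound by GATA factors, and the NF-kB motif. The downstream Il1rl1 window held GGAATG from -132 to -127 relative to the start and AGATAA on the other strand from -103 to -98, and the upstream Il1rl1 window held AGATAA from -217 to -212. Each Il33 window held GGAATG, from -131 to -126 in the upstream window and, on the other strand, from -107 to -102 in the downstream window. GGAATG was present in 14.7% of all 32851 windows of this length, AGATAA in 11.2%, TGANTCA in 7.81% and the NF-kB motif in 8.46%. Of the 15 windows of the 10 listed genes, 3 held GGAATG (1 each of Il1rl1, Il1r1 and Il1rn), 2 held AGATAA (both of Il1rl1), 4 held TGANTCA (Il6, Il11, Il1rn and Lif) and 4 held the NF-kB motif (Il1r1, Il6, Csf1 and Lif). In the Il1r1 window the NF-kB match overlapped 1 of the 2 GGAATG matches. The Ptgs2 window held none of the 4 motifs. These matches describe the letters of the windows and no binding was measured here.

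Il1rl1 signal was lower in the Lats2-/- extract of all 3 litters at all 3 of its probes, and the size of the difference was far from equal between litters. At the brightest probe, A_51_P339793, which the files match to the transcript of the soluble form alone (chr1:40392470-40392529, plus strand), the log2 signal was 15.51, 17.11 and 15.06 in the Lats2+/+ extracts of litters 112, 116 and 121. In the Lats2-/- extracts of the same litters it was 14.73, 15.13 and 10.43. The Lats2-/- extract of litter 121 stood far under the other 5 extracts, and the Lats2-/- value of litter 116 lay just above the Lats2+/+ value of litter 121, so that the genotypes did not separate outside litters. The ratios were -0.79, -1.98 and -4.63, with a mean of -2.47 ± 1.97 (n = 3), and correspond to 1.72-, 3.95- and 24.8-fold lower signal. The Lats2-/- extracts spanned 4.70 on the log2 scale and the Lats2+/+ extracts 2.05.

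The membrane form was read by probe A_52_P484194 (chr1:40409653-40409712, plus strand), which the files match to the transcript of that form alone. Its log2 signal was 12.39, 14.17 and 11.82 in Lats2+/+ and 12.21, 11.66 and 8.02 in Lats2-/-. In litter 112 the extracts were nearly level at this probe, and in the other two litters Lats2-/- was clearly lower. The ratios were -0.18, -2.50 and -3.80, with a mean of -2.16 ± 1.84 (n = 3). Probe A_52_P19955, matched to both forms and crossing a splice junction (chr1:40386043-40386905, plus strand), had log2 signals of 11.87, 13.90 and 11.16 in Lats2+/+ and 10.68, 11.67 and 6.67 in Lats2-/-. Its ratios were -1.19, -2.23 and -4.49, with a mean of -2.64 ± 1.69 (n = 3). All 3 probes gave signals well above background in both channels of all 8 arrays, so that each ratio compares measured signals. The shared probe was dim in the Lats2-/- extract of litter 121, at 6.67. Its mean was -3.14 with the processed signals of Feature Extraction.

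**Figure D1:**
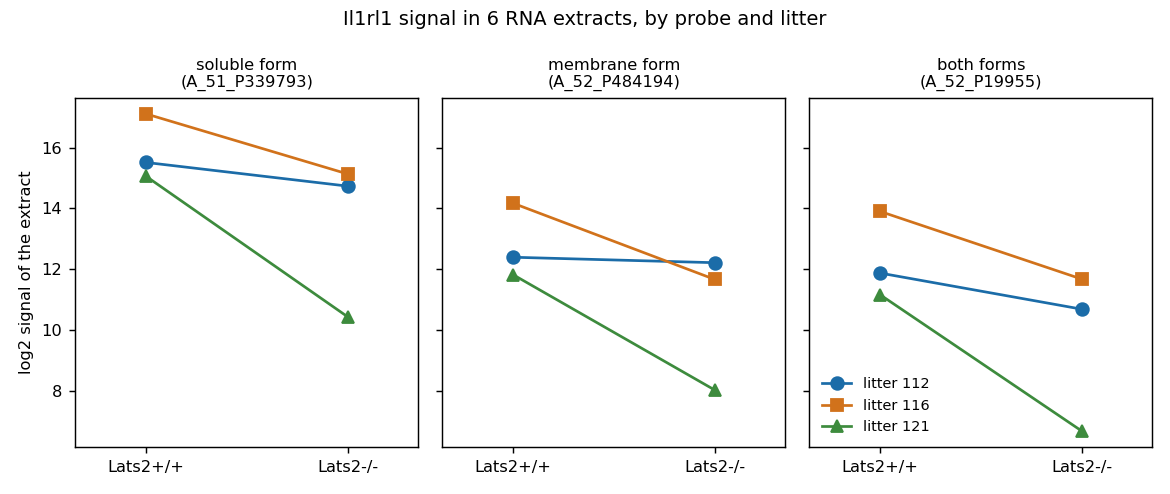
Log2 signal of the 6 extracts (y axis) by genotype (x axis) for the 3 Il1rl1 probes, 1 panel each, with a line joining the extracts of a litter; levels are read within a panel. Every line slopes down from Lats2+/+ to Lats2-/-, least in litter 112 (ratios of -0.79, -0.18 and -1.19) and most in litter 121 (-4.63, -3.80 and -4.49).

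Il1rl1 was chosen for its measured ratio, so none of its 3 probes stands apart from that choice. The shared probe was at least 2-fold lower in each litter and was among 7 such probes of the 22642 kept (0.0309%). With ratios of -0.79 and -0.18 in litter 112, the probes of the soluble and the membrane form fell outside that limit. By mean ratio, 7 kept probes lay lower than the soluble-form probe, 12 lower than the membrane-form probe and 5 lower than the shared probe. Without litter 121 the means were -1.38 (soluble), -1.34 (membrane) and -1.71 (both), each smaller in size by more than 1.5 times, and these are also the means of slide 1; slide 2 holds litter 121 alone, so its slide and its litter cannot be told apart.

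Repeat arrays differed little beside these differences between litters. For the soluble-form probe, the ratio was -0.72 and -0.86 on the 2 arrays of litter 112, and -1.71 and -2.25 on those of litter 116. In litter 121 its 4 arrays gave -4.79 to -4.44. Over the 12 kept probes of the listed genes, the range between arrays of 1 litter was 0.13 at the median, and the widest was 1.24, for Il1rl2 in litter 121.

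**Figure D2:**
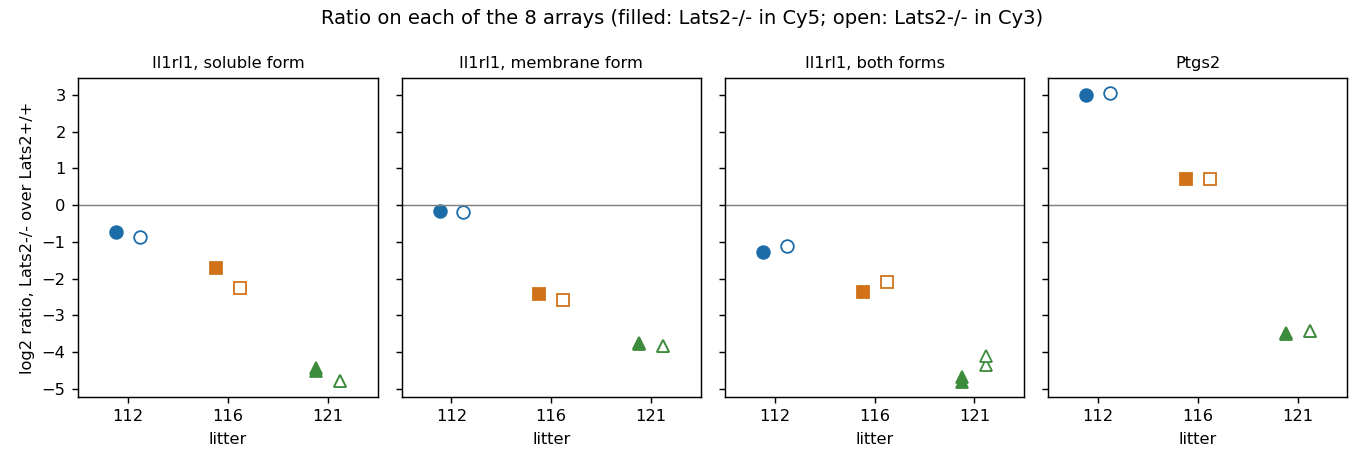
Log2 ratio of Lats2-/- over Lats2+/+ (y axis) on each of the 8 arrays, by litter (x axis), for the 3 Il1rl1 probes and the brightest Ptgs2 probe; filled symbols have Lats2-/- in Cy5 and open symbols in Cy3. Dye-swapped arrays of a litter lie close together, while the litters lie apart, with Ptgs2 at 2.98 and 3.05 in litter 112 and at -3.50 to -3.42 in litter 121.

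Il33, which encodes the ligand of ST2, was higher in the Lats2-/- extract of all 3 litters. Its log2 signal was 6.32, 7.10 and 6.58 in Lats2+/+ and 7.73, 10.53 and 9.64 in Lats2-/- (probe A_51_P122321, chr19:30026497-30026556, plus strand). Every Lats2-/- extract lay above every Lats2+/+ extract, although the Lats2-/- extract of litter 112 exceeded the highest Lats2+/+ extract by less than the others did. The Lats2+/+ extract of litter 112 was not well above background on its arrays, so that litter gives a bound of at least 2.67-fold, and the other two litters gave 10.8- and 8.37-fold. The mean ratio was 2.64 ± 1.07 (n = 3), and it enters litter 112 at 1.41, a value that rests on that dim signal. In limma over all kept probes the mean had an adjusted p = 0.711, and 11 kept probes had a higher mean. With the processed signals of Feature Extraction or the deposited value table the mean was 4.47. The lowest of its means without 1 litter was 2.24. Il33 did not pass the adjusted threshold, as no probe on the array did: 0 of 22642 (0%) had an adjusted p under 0.05 in limma, with 0.634 the smallest, while 1549 had an unadjusted p under 0.05. The methods' t-test on the same litter ratios also gave 0 after Benjamini-Hochberg adjustment and 1348 at an unadjusted p under 0.05. Fits that enter the 8 arrays with litter or slide as a random block, and so take arrays of 1 litter in part as separate, put Il33 past the threshold, with adjusted p = 0.00251 for litter, 0.00981 for litter with a dye term and 0.0176 for slide.

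**Figure D3:**
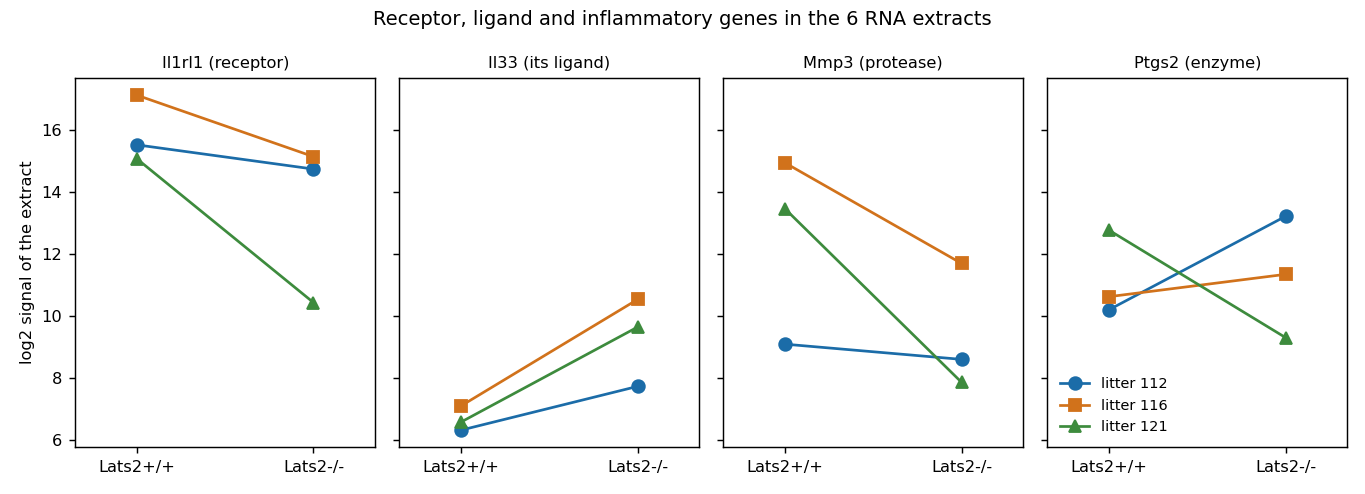
Log2 signal of the 6 extracts (y axis) by genotype (x axis) for Il1rl1 (soluble-form probe), Il33, Mmp3 and Ptgs2, with a line joining the extracts of a litter; levels are read within a panel. The lines of Il1rl1 and Mmp3 slope down and those of Il33 slope up in all 3 litters, while Ptgs2 has a ratio of 3.01 in litter 112 and of -3.46 in litter 121.

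No related receptor that passed the filter was lower in Lats2-/- in all 3 litters. Il1r1, the signalling receptor for IL-1, had log2 signals of 8.14, 9.95 and 8.77 in Lats2+/+ and 8.55, 10.55 and 9.99 in Lats2-/- (probe A_51_P271503, chr1:40260368-40260427, plus strand). It was higher in Lats2-/- in each litter, opposite to Il1rl1, although the genotypes overlapped between litters. Its ratios were 0.41, 0.59 and 1.22, with a mean of 0.74 ± 0.43 (n = 3; limma adjusted p = 0.711), and with slide as a random block over the 8 arrays it passed with an adjusted p = 0.0296. Il1rl2, the receptor for IL-36, had signals of 6.51, 6.14 and 7.41 in Lats2+/+ and 7.72, 7.90 and 6.84 in Lats2-/- (probe A_52_P261184, chr1:40311946-40312005, plus strand). Lats2-/- was the higher in litters 112 and 116 and the lower in litter 121. Its ratios were 1.22, 1.76 and -0.57, with a mean of 0.80 ± 1.22 (n = 3; limma adjusted p = 0.767), and 0.33 without litter 116 against 1.49 without litter 121. Of the 4 arrays of litter 121, 1 gave 0.34 and the others -0.90 to -0.82. With the first dye-swap pair of that litter alone the mean was 0.71. With the processed signals or the value table the mean was 2.23, and with slide as a block 0.46. The Lats2+/+ extract of litter 116 was not well above background, which makes that litter's difference at least 3.40-fold, and that of litter 112 was above background on 1 of its 2 arrays, so that the ratio of 1.22 rests on a dim signal. The other Il1rl2 probe, A_51_P467808, did not pass the filter. 

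Il1rap, the shared partner chain, had signals of 8.45, 8.99 and 8.31 in Lats2+/+ and 7.95, 10.11 and 7.33 in Lats2-/- (probe A_52_P467814, chr16:26632336-26632395, plus strand). The difference changed direction between litters, with Lats2-/- lower in litters 112 and 121 and higher in litter 116. The ratios were -0.49, 1.12 and -0.98, with a mean of -0.12 ± 1.1 (n = 3; limma adjusted p = 0.971), and the mean was 0.07 without litter 112, 0.32 without litter 121 and -0.73 without litter 116. A dimmer probe of the gene, A_52_P467232, gave -0.15, 0.65 and -0.62, in the same order of litters. The 3 further Il1rap probes did not pass the filter.

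Il1r1, Il1rl2 and Il1rl1 lie in a cluster of receptor genes on chromosome 1, and no neighbour that passed the filter was lower in Lats2-/- in all 3 litters. Il18rap, the accessory chain for IL-18, had ratios of -0.70, 0.15 and -1.13 (mean -0.56 ± 0.65), Mfsd9 had a mean of 0.05 ± 0.03 and Map4k4 of 0.12 ± 0.33 (n = 3 each). Il1r2, the decoy receptor for IL-1, was well above background in no array, nor were Slc9a4, Slc9a2 and Tmem182, and Il18r1 was above it in 1 Lats2+/+ channel. Within the cluster, the 4 receptor genes that passed the filter had mean ratios from -2.47 (Il1rl1) to 0.80 (Il1rl2).

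Ptgs2, the inducible enzyme of prostaglandin synthesis, had the widest spread between litters among the listed genes. Its log2 signal was 10.20, 10.62 and 12.76 in Lats2+/+ and 13.21, 11.34 and 9.30 in Lats2-/- (probe A_51_P254855, chr1:151869832-151869891, plus strand). Lats2-/- was the higher in litters 112 and 116 and the lower in litter 121, at 8.08-fold higher, 1.64-fold higher and 11.0-fold lower. The ratios of 3.01, 0.72 and -3.46 had a mean of 0.09 ± 3.28 (n = 3; limma adjusted p = 0.992), and 33 of the 22642 kept probes had a larger SD. The second probe of the gene, A_52_P224760, gave 2.91, 0.63 and -3.35. The mean was 1.87 on slide 1 and -3.46 on slide 2, which holds litter 121 alone. Ptges, the enzyme that completes prostaglandin E2 and often works with Ptgs2, was well above background on 5 of 8 arrays in either genotype, with log2 signals of 6.09, 6.25 and 8.63 in Lats2+/+ and 6.36, 9.65 and 6.25 in Lats2-/-. The higher extract was Lats2-/- in litters 112 (at least 1.14-fold) and 116 and Lats2+/+ in litter 121, and the lower extract of each litter lay near background, so no ratio is given. Ptgs1, the constitutive cyclooxygenase, had ratios of 0.25, -0.97 and -4.11 (mean -1.61 ± 2.25, n = 3).

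The SD over litters of the cytokines on the list that passed the filter was 0.43 to 0.76. Il6, a pro-inflammatory cytokine, had signals of 6.64, 6.71 and 8.82 in Lats2+/+ and 6.30, 6.89 and 7.50 in Lats2-/- (probe A_51_P217218). The values of litters 112 and 116 lay close together near background and litter 121 was higher in both genotypes. The ratios were -0.34, 0.18 and -1.32 (mean -0.49 ± 0.76, n = 3; limma adjusted p = 0.776), and the mean was -0.08 without litter 121, -0.83 without litter 116 and -0.96 with the processed signals or the value table. Its Lats2-/- extract of litter 112 was not well above background, where the difference is at least 1.27-fold.

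Il11, a gp130 cytokine of stromal cells, had signals of 7.24, 7.41 and 7.60 in Lats2+/+ and 6.97, 7.95 and 7.47 in Lats2-/- (probe A_51_P267783). The genotypes overlapped, and the ratios of -0.28, 0.54 and -0.13 had a mean of 0.04 ± 0.43 (n = 3; limma adjusted p = 0.977). Csf1, the growth factor of macrophages, was bright in all extracts, at 12.61, 12.15 and 12.94 in Lats2+/+ and 12.65, 13.17 and 13.08 in Lats2-/- (probe A_51_P195506). Litter 116 alone differed by 2.03-fold, and the ratios of 0.04, 1.02 and 0.14 had a mean of 0.40 ± 0.54 (n = 3, limma adjusted p = 0.761), or 0.09 without litter 116. On the 2 arrays of litter 112 Csf1 had -0.04 and 0.12, so that its sign there differed between arrays. Neither probe of Il1rn, the IL-1 receptor antagonist, passed the filter. Its signal was well above background only in the Lats2+/+ extract of litter 116, which was at least 2.13-fold above its Lats2-/- littermate (probe A_52_P431159).

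**Figure D4:**
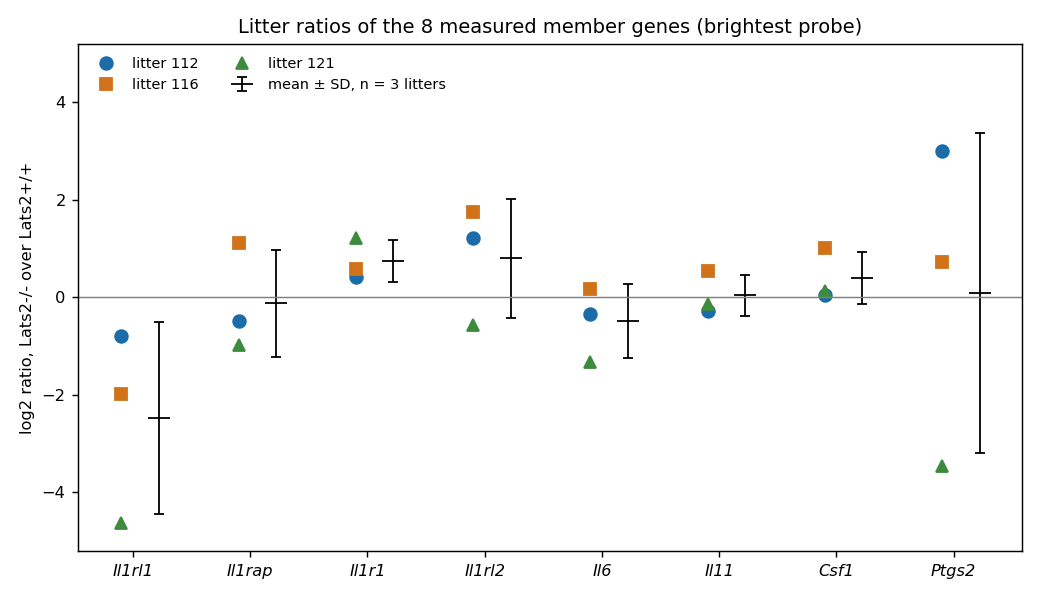
Log2 ratio of Lats2-/- over Lats2+/+ (y axis) for the 8 listed genes that passed the filter (x axis), with 1 symbol per litter and the mean ± SD over 3 litters in black. Il1rl1 lies under 0 and Il1r1 and Csf1 lie over 0 in all 3 litters, with Csf1 at 0.04 in litter 112. Ptgs2 spreads from 3.01 to -3.46.

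Of the 7 genes beside Il1rl1, whose sign was fixed by its choice, 2 had the same sign in all 3 litters. These were Il1r1 and, with a ratio of 0.04 in litter 112, Csf1. Over all kept probes the share was near that, at 29.7%. The mean ratio of the 7 genes was over 0 for 5 and under 0 for 2. The median was 0.09 beside 0.01 over all genes. Il1rl2, one of the 5, passed the filter through its Lats2-/- extracts, so that the filter favoured its direction. None had an adjusted p under 0.05. At an unadjusted p under 0.05, Il1r1 was higher, beside 3.56% of kept probes called in that direction, and 0 of the 7 were called lower, beside 3.29%.

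Of 84 further pathway genes that passed the filter, 10 (11.9%) were higher and 3 (3.57%) lower at an unadjusted limma p under 0.05, beside 4.15% and 3.45% of all 14727 genes at their brightest probe. The lists were chosen with earlier results of these data known. These 13 genes are named here, and the adjusted p of each was 0.711. Of 10 IL-1 family ligands, only Il33 and Il18 passed the filter and both had higher means in Lats2-/-. Il18, with ratios of 0.45, 1.21 and 0.68, had a mean of 0.78 ± 0.39 (n = 3), or 1.24 with the processed signals or the value table. Il1a and Il1b, the ligands of Il1r1, were well above background on none of the 8 arrays. Of 11 genes of the IL-1 receptor family 7 passed, of which 4 are the receptors described above, Il1rl1 included; the other 3, Il18rap, the orphan receptor Sigirr and the IL-18 binding protein gene Il18bp, had means of -0.56, -0.11 and 0.02. The counts and medians of the NF-kB, IL-6 family ligand, colony stimulating factor and prostaglandin lists below likewise include Il6, Il11, Csf1 or Ptgs2 where these belong to them. Over all genes the median was 0.01, and the share of all genes with a mean over 0 was not counted. Of the 18 genes of IL-1 receptor signalling all passed, 11 with means over 0, with a median of 0.10. Among them Irak2, a kinase bound to the receptor complex, had a mean of 0.91 ± 0.43, and the MAP kinase kinases Map2k7 and Map2k3 had means of 0.36 ± 0.12 and -0.46 ± 0.18 (n = 3).

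Of 31 NF-kB factors and response genes 24 passed, 19 with means over 0. The median of the 24 was 0.28 beside 0.01 over all genes, but it was 0.89 in litter 116 and -0.52 in litter 121. Among the 19, Cxcl1 and Ptges passed the filter only through their Lats2-/- extracts, so that the filter favoured their direction. Ccl5, also among the 19, passed only through its Lats2+/+ extracts. Tnfaip3, a feedback inhibitor of NF-kB, had ratios of 0.67, 2.12 and 1.0 (mean 1.26 ± 0.76, n = 3, or 0.83 without litter 116), and Nfkb1, an NF-kB subunit, had a mean of 0.42 ± 0.22 (n = 3). Mmp3, a matrix protease that fibroblasts release on IL-1, had log2 signals of 9.09, 14.93 and 13.45 in Lats2+/+ and 8.60, 11.69 and 7.86 in Lats2-/-. It was lower in Lats2-/- in each litter and least so in litter 112, with ratios of -0.49, -3.24 and -5.59 (mean -3.11 ± 2.56, n = 3), and -1.87 without litter 121. The chemokines Ccl2 and Ccl7 changed direction between litters, with ratios of -0.69, 0.81 and -2.34 and of -0.35, 1.99 and -2.56.

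Of 10 IL-6 family ligands 7 passed, 4 with means over 0 and a median of 0.02, and of 8 receptors of that family 5 passed, with a median of 0.14. The shared chain Il6st had ratios of 0.01, -0.46 and -0.33 and Osmr, the oncostatin M receptor, of 0.97, -0.03 and 0.66, so that each had 1 litter near 0. All 14 genes of JAK-STAT3 signalling passed and 13 had means over 0, with a median of 0.25 beside 0.01 over all genes. Of the 14, 6 had the same sign in all litters, beside 29.7% of all kept probes. Stat5a, Stat5b and Cish, a feedback gene of STAT5, had means of 0.30 ± 0.09, 0.34 ± 0.08 and 0.48 ± 0.32 (n = 3). Of 9 colony stimulating factors and receptors 6 passed, with a median of 0.09; Csf2ra, a receptor chain for GM-CSF, had a mean of 0.89 ± 0.42, and Il34, a ligand of the Csf1 receptor that the files name 2010004A03Rik, of -0.87 ± 0.62 (n = 3), or -0.53 without litter 112. Of 17 prostaglandin genes 10 passed, with 4 means over 0 and a median of -0.21.

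**Figure D5:**
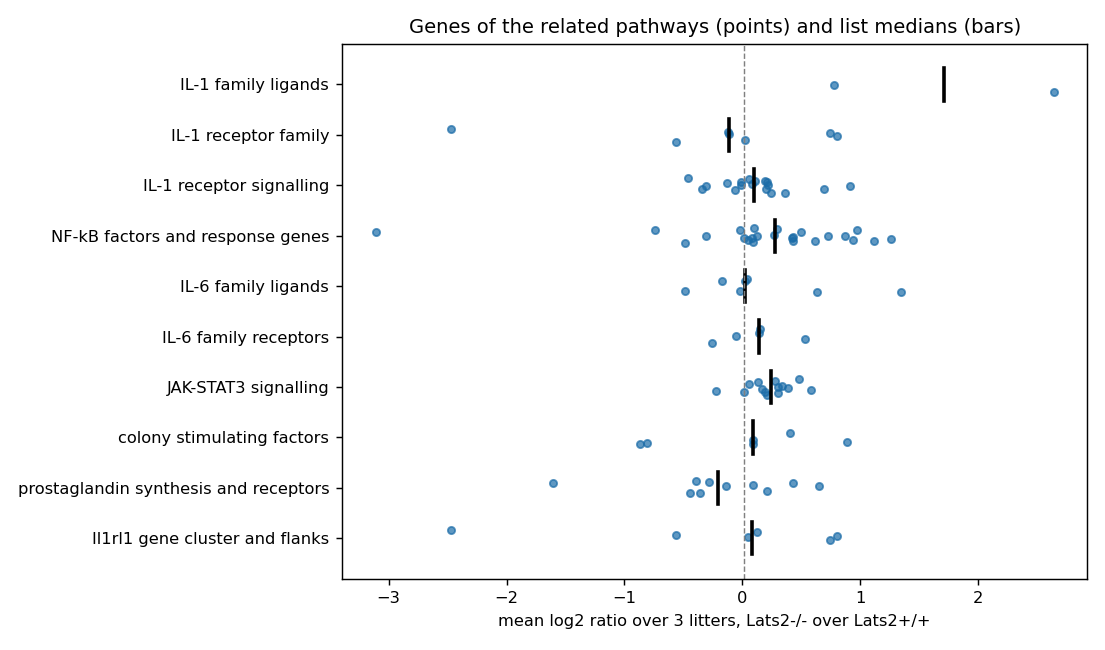
Mean log2 ratio over 3 litters (x axis) of each gene that passed the filter in the related pathway lists (y axis), with a black bar at the list median and a dashed line at the median over all genes (0.01). The list medians lie between -0.21 and 0.28 except for the 2 IL-1 family ligands (1.71), and Il1rl1 (-2.47) and Mmp3 (-3.11) are the lowest points.

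The genes whose log2 signals over the 6 extracts were most like those of the soluble-form Il1rl1 probe, among 1474 genes spanning at least 2 on the log2 scale, were Rnf130, an E3 ubiquitin ligase (Pearson r = 0.986), Etv4, an ETS transcription factor (0.985), Sgcd, delta-sarcoglycan (0.981), Rbpj, the transcription factor of Notch signalling (0.976), and Crabp1, a retinoic acid binding protein (0.970). The 6 points share 3 litters and 2 slides, and the values are a description. The Il1rl1 signal was itself far lowest in the Lats2-/- extract of litter 121, so genes chosen by likeness to it are low there by that choice. All 5 genes had their lowest signal in this extract, such as 8.28 for Crabp1 beside 12.69 to 15.27 in the others. Only Rnf130 and Sgcd were also among the 5 nearest genes to each of the other Il1rl1 probes, a comparison added after the values were seen.

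Lats2 itself had 4 probes, of which A_52_P425064 was lower in Lats2-/- in each litter (-1.33, -1.05 and -0.56), whereas the other 3 were lower in litters 112 and 116 and higher in litter 121, at up to 1.17; which part of the gene is deleted is not given in the sources used here, so these 3 probes do not check the genotype and litter 121 is named by its labels. All 10 fibroblast markers were measured, but their summed linear signal was 224700, 188832 and 403727 in Lats2+/+ and 213040, 453994 and 235409 in Lats2-/-, so that litters 116 and 121 moved in opposite directions. The median ratio of these markers was 0.10, 2.22 and -0.74 in litters 112, 116 and 121. In litter 121 they ran from -4.96 (Pdgfra, whose Lats2-/- extract was well above background on 2 of 4 arrays there), -3.66 (Thy1) and -3.42 (Col3a1) through -1.13 (Col1a1), -0.77 (Lum) and -0.72 (Col1a2) to between -0.17 and 0.07 for Fbn1, Pdgfrb, Vim and Fn1. Second kept probes of Thy1, Col3a1 and Fbn1 gave -3.75, -1.72 and -0.29 in litter 121. That of Pdgfra was at least 2.29-fold lower in Lats2-/- there, with its Lats2-/- extract not well above background. Of 9 mast cell markers, which belong to a cell type rich in ST2, 1 passed. This was Cma1, well above background on 6 Lats2-/- and 4 Lats2+/+ arrays, with ratios of 0.29, 0.03 and -0.12. Tpsb2 and Tpsab1 were well above background on 1 Lats2-/- and 1 Lats2+/+ array each. Fcer1a, Mcpt4, Ms4a2, Hdc, Kit and Cpa3 were well above background on no array, and the summed signal was 622 to 653 in every extract. Of 9 macrophage markers 4 passed, with Ptprc, Adgre1, Tyrobp and Fcgr1 well above background on no array, and the sum was 1075, 2454 and 1047 in Lats2+/+ and 969, 1369 and 4090 in Lats2-/-. In litter 121 the 4 had ratios of 3.40 (Lyz2), -0.74 (Cd14), -0.16 (Cd68) and -0.08 (Csf1r), so that the higher sum there was that of Lyz2, while Cd14 was lower in Lats2-/- in all 3 litters (-0.60, -1.64 and -0.74). Endothelial, lymphoid and epithelial markers passed for 1 of 7, 2 of 8 and 2 of 6 genes. The sums were 473 to 532, 645 to 706 and 437 to 515. Pecam1, Cdh5 and Epcam were well above background on no array. Kdr (endothelial) and Cdh1 (epithelial) did not pass but were well above background on 4 Lats2-/- and 0 Lats2+/+ arrays. In litter 121 they were at least 1.41- and 2.08-fold higher in Lats2-/-. The epithelial Krt8 and Krt18 were well above background on 0 Lats2-/- and 2 Lats2+/+ arrays, in litter 116. The part of the fibroblast, macrophage, endothelial and epithelial markers in the Il1rl1, Ptgs2 and Mmp3 differences of litter 121 was not tested. Fewer cells of a type and less RNA per cell cannot be told apart in bulk RNA.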

How the data were processed

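Two-colour Agilent whole mouse genome arrays were scanned and extracted by the authors with Feature Extraction (per the submitters' processing notes, version 10.5.1.1; in the headers of the files, 10.7.3.1). The deposited scanner files give spot and local background intensity on a linear scale, not normalized, and flags. They also hold the authors' background-subtracted, dye-normalized processed intensity and its log10 ratio of red over green; the deposited value table holds the same log10 ratios turned to Lats2-/- over Lats2+/+ (largest difference 0.00500), with column medians of 0.

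Mean intensities were background corrected by normexp (offset 50) over all spots, control spots were removed, 860 gene spots with an outlier mark, counted over the 8 arrays, were dropped; none was saturated. Ratios were normalized by loess within each array, turned to Lats2-/- over Lats2+/+ and averaged over repeat spots and arrays to 1 ratio per litter, the replicate (3 litters, 6 extracts). Extract signals were taken after loess and Aquantile scaling. Per array and channel, 52.9% to 61.3% of gene probes had signal clear of background, and the number of litters limits the precision. Litter ratios were tested against 0 with limma 3.58.1 (R 4.3.3; lmFit, eBayes, two-sided) and adjusted by Benjamini-Hochberg over 22642 kept probes. A gene's value is its brightest kept probe. A bound ("at least") sets the bright extract against the lowest signal well above background on the array, or the dim probe's own signal if that is higher. Probe names were updated through RefSeq accessions for 24375 of 41174 gene probes, symbols for 6301 and synonyms for 2426; the rest kept the file's name.

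Named were all members, pathway genes with an unadjusted p under 0.05, Lats2 and the 5 genes most like Il1rl1. Il6st, Osmr, Sigirr, Il18bp, Ptges, Ptgs1, Ccl2, Ccl7, Cxcl1, Ccl5, Il1a, Il1b, genes of the chromosome 1 cluster and markers were named after their values were seen. Members and lists were chosen with earlier results of these data known. The fit was tested on simulated data. Alternatives changed the offset, normalization, source values, filter, blocks, repeat arrays, litters and test.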

Additional observations from a re-analysis of the deposited data

How the results depend on the processing

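The mean ratio of Il1rl1, whose sign was fixed by its choice, was followed at the soluble-form probe. Over the alternatives it ranged from -3.01 with slide as a block to -2.46 with 1 dye-swap pair of litter 121. When 1 litter was left out it ranged from -3.31 to -1.38. With processed signals or the value table the shared probe had -3.14 in place of -2.64. No probe passed the adjusted threshold except with a random block over the 8 arrays, with 717 for slide, 341 for litter and 203 for litter with a dye term. The number with an unadjusted p under 0.05 was 2623 with no filter on dim probes, 554 with no replicate block (3 extracts against 3), 4030 with slide as a random block, 2998 with litter and 2852 with litter and a dye term, and 1144 to 1457 without 1 litter. Adding a limit of 2-fold to that p gave 189 probes, but 305 with an offset of 16, 550 with processed signals, 545 with the value table, 112 with no replicate block, 418 with slide as a fixed block, 441 with slide, 414 with litter and 399 with litter and a dye term as random, 71 with the methods' t-test, and 260 to 373 without 1 litter. Without the filter 11485 probes had the same sign in all litters, beside 6731. Calls at an unadjusted p under 0.05 were 805 higher and 744 lower, but 690 and 851 with median centring and 669 and 838 with processed signals.

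Among the other listed genes, Il11 had a mean of -0.06 with processed signals and with the value table, -0.0027 with slide as a fixed block and as a random block, and -0.21 to 0.20 without 1 litter. Ptgs2 had -0.80 with slide as a fixed or random block and -1.37 to 1.87 without 1 litter. Il1rap had -0.73 to 0.32 without 1 litter. Of the genes named with an unadjusted p under 0.05, 8 (Il33, Il1r1, Il18, Irak2, Csf2ra, Mmp3, Stat5a and Tnfaip3) passed the adjusted threshold in at least 1 fit with a random block, and 0 in any other alternative. The cause of these shifts was not tested. The other measured members kept their direction in every alternative run, but with processed signals or the value table the mean of Il1rl2 was 2.23 in place of 0.80 and that of Il6 -0.96 in place of -0.49 (-0.83 to -0.08 without 1 litter), and Il1rl2 had 0.46 with slide as a block; Il1rap had -0.32 with processed signals or the value table and -0.33 with slide as a block, in place of -0.12. Of the pathway genes named, Il33 moved to 4.47 and Il18 to 1.24 with processed signals or the value table. Dim signals limit Il6, Il1rn and Il1rl2, whose values lay near background in some extracts.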
